A study of Mus musculus with 18 samples.

Results

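The genes described here encode the oxidative phosphorylation machinery, the 4 complexes of the respiratory chain and the ATP synthase, which are built from the products of 2 genomes. Members were all protein-coding genes of the table whose symbol begins with mt-Nd, mt-Co, mt-Cytb or mt-Atp, or follows the Nduf, Sdh, Uqcr, Cox4 to Cox8 or Atp5 naming pattern of the nuclear subunits. Of 48795 genes in the table, 107 matched, 10 of them were not protein-coding and were left out, and 97 remained. Of these, 13 are encoded on the mitochondrial chromosome and 84 in the nucleus. The nuclear members comprise 35 subunits of complex I, 4 of complex II, 8 of complex III, 20 of complex IV and 17 of complex V. The rule itself uses gene names and types and no measured value.

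Messenger RNA was sequenced from GL261, a C57BL/6 mouse glioma line carrying green fluorescent protein (GFP), grown in culture or as tumours in mice, with 3 libraries in each of 6 groups. Pfp/Rag2-/- hosts lack perforin and the recombination gene Rag2, and therefore have no mature T or B cells, whereas C57BL/6 wild-type (WT) hosts are immunocompetent. The groups were GFP+ cells sorted from Pfp/Rag2-/- tumours, GFP+ cells sorted from WT tumours, unsorted Pfp/Rag2-/- tumours, unsorted WT tumours, GFP- cells sorted from WT tumours, and GFP+ cells kept in culture, the same cells that had been injected. Tumours came from 6 symptomatic mice of each host and were dissociated with collagenase before sorting or lysis. All groups rest on 1 tumour line, the GFP- group is any cell without the label, and the number of mice behind a library is not given. The p-values below therefore measure the spread between these libraries only.

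In oxidative phosphorylation, complexes I and II pass electrons from NADH and succinate to ubiquinone, complex III hands them to cytochrome c, and complex IV reduces oxygen with them. Complexes I, III and IV pump protons across the inner mitochondrial membrane, and the ATP synthase, complex V, uses the return flow to make ATP. The mitochondrial chromosome, transcribed by its own RNA polymerase as long precursors from both strands, encodes only core membrane subunits of complexes I, III, IV and V. All other subunits, and every subunit of complex II, are nuclear.

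Levels are normalized counts, the deposited read counts divided by 1 size factor per library. The libraries held 19172814 to 21141662 reads, and size factors were 0.649 to 0.761 in GFP- cells and 1.04 to 1.15 in the other groups. Summed markers of macrophages and microglia (15 genes) ranged over 6786 to 13581 in Pfp/Rag2-/- GFP+ cells, 6461 to 15004 in WT GFP+ cells, 9719 to 10837 and 29318 to 43347 in unsorted Pfp/Rag2-/- and WT tumours, 408158 to 529958 in GFP- cells and 168 to 172 in culture, where Tyrobp, C1qb, C1qc, Aif1, Itgam and Adgre1 were at 0. Tmem119 alone, a gene of microglia, made up 4742 of the 6786 in Pfp/Rag2-/- GFP+ library 2, and had 3404 to 4890 in that group, 3063 to 7288 in WT GFP+ cells, 2598 to 14210 in unsorted WT tumours, 2180 to 5251 in GFP- cells and 97.3 to 108 in culture, so that gene carries much of the lower sums. Ptprc, the pan-leukocyte gene, stood at 1845, 49.6 and 49.7 in Pfp/Rag2-/- GFP+ libraries 1, 2 and 3 and at 946.2, 78.9 and 194 in WT GFP+ libraries 1, 2 and 3, so the library numbered 1 stood apart in both. Unsorted WT library 1 also stood apart, with 1.90% of its reads in the mitochondrial members, against 0.970% and 1.12% in the other two. In such mixtures, fewer cells of a type and less RNA per cell cannot be told apart.

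Only 7 of the 13 mitochondrial genes carried usable reads. Those of complex I were mt-Nd1 (chromosome M, 2751 to 3707, GRCm38), mt-Nd2 (3914 to 4951), mt-Nd4 (10167 to 11544) and mt-Nd5 (11742 to 13565), on one strand and mt-Nd6 (13552 to 14070) on the other. Cytochrome b, mt-Cytb (14145 to 15288), and the catalytic subunit of complex IV, mt-Co1 (5328 to 6872), completed the set. The stretch between mt-Co1 and mt-Nd4 had almost no reads. There mt-Co2, mt-Atp8, mt-Atp6 and mt-Nd4l had 0 reads in all 18 libraries, mt-Co3 had 1 and mt-Nd3 had 5. For a gene at 0 reads, counting alone allows up to 3 reads.

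The unread genes lie in a stretch with a near-identical copy in nuclear chromosome 1, annotated as pseudogenes between 24611535 and 24616197. Annotated copies of at least 98% identity covered 99.9% of mt-Co3, 99.6% of mt-Co2 and of mt-Atp6, 99.1% of mt-Nd3 and 99% of mt-Nd4l, but 21.1% of mt-Atp8. They also covered 63.6% of mt-Nd4 and 31.3% of mt-Co1, and whether reads of those 2 genes were lost there was not tested. No annotated copy was found for mt-Nd1, mt-Nd2, mt-Nd5, mt-Nd6 or mt-Cytb. Only annotated transcripts were searched, so a copy without annotation, also of the rest of mt-Atp8, would be missed. The mt-Nd3 gene and its copy Gm28438 are shown because a single base separates them. Over 345 compared bases they differ by T3C, counted from 1 at the 5′ end of the gene with the mitochondrial base first, and that base is in capitals in the first 60 bases of each (GRCm38 reference; mt-Nd3 at chrM:9459-9518, plus strand, Gm28438 at chr1:24613060-24613119, minus strand):
mt-Nd3: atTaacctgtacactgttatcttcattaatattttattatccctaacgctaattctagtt
Gm28438: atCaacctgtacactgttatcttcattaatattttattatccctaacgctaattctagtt

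No base separated mt-Co2, mt-Co3 or mt-Nd4l from their copies over 681, 783 and 294 bases. Reads were nevertheless assigned to Gm28438: 34, 31 and 24 in Pfp/Rag2-/- GFP+ cells, 37, 26 and 28 in WT GFP+ cells, 185, 107 and 94 in unsorted Pfp/Rag2-/- tumours, 152, 74 and 68 in unsorted WT tumours, 3, 2 and 1 in GFP- cells and 57, 70 and 62 in culture. Whether those reads came from the nucleus or from mt-Nd3 was not tested. How reads with several matches were counted is not given in the sources used here. Among nuclear members, 33 of 84 matched another annotated gene at 98% identity or more over part of the transcript, and 0 over at least 90% of it. These matches are not all copies. The best match was a pseudogene for some, such as Gm12251 for Ndufs3. For others it was a protein-coding gene on the same chromosome, such as Gabpa for Atp5j (chromosome 16) and Emc8 for Cox4i1 (chromosome 8). Whether such genes or pseudogenes took some of the members' reads was not tested. In the table, Cox8c had 0 reads, Cox7b2 had 6 and Cox8b had 14 over all libraries, which left 81 nuclear members with a mean of at least 10.

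Over the 6 groups the mean of the mitochondrial set spanned 13.22 to 14.67 on the log2 scale of normalized counts, and that of the nuclear set 10.24 to 10.57. The mean log2 level of the 7 read mitochondrial members was 13.22 ± 0.17 in Pfp/Rag2-/- GFP+ cells, 13.48 ± 0.23 in WT GFP+ cells, 14.15 ± 0.26 in unsorted Pfp/Rag2-/- tumours, 14.25 ± 0.56 in unsorted WT tumours, 14.67 ± 0.06 in GFP- cells and 13.37 ± 0.17 in culture (SD, n = 3). The same mean over the 81 nuclear members was 10.32 ± 0.01 in Pfp/Rag2-/- GFP+ cells, 10.29 ± 0.04 in WT GFP+ cells, 10.31 ± 0.04 in unsorted Pfp/Rag2-/- tumours, 10.57 ± 0.19 in unsorted WT tumours, 10.25 ± 0.11 in GFP- cells and 10.24 ± 0.03 in culture. The difference between both means within a library, mitochondrial minus nuclear, does not depend on the size factor beyond the pseudocount of 1. It was lowest in the GFP+ cells, sorted or cultured, and highest in the GFP- cells. As a share of a library's reads the order was another, since size factors were lowest in GFP- cells. The nuclear members held 1.02% of the reads in Pfp/Rag2-/- GFP+ cells, 1.01% in WT GFP+ cells, 0.996% in unsorted Pfp/Rag2-/- tumours, 1.20% in unsorted WT tumours, 0.571% in GFP- cells and 1.00% in culture. The 13 mitochondrial members held 0.724% in Pfp/Rag2-/- GFP+ cells, 0.755% in WT GFP+ cells, 1.11% in unsorted Pfp/Rag2-/- tumours, 1.33% in unsorted WT tumours, 0.957% in GFP- cells and 0.633% in culture.

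Library by library, the mitochondrial minus nuclear difference was 3.08, 2.81 and 2.80 in GFP+ cells of Pfp/Rag2-/- hosts, and GFP+ cells of WT hosts had 3.44, 2.97 and 3.16. Unsorted Pfp/Rag2-/- tumours had 4.07, 3.79 and 3.65, and unsorted WT tumours had 4.11, 3.39 and 3.57. GFP- cells had 4.49, 4.24 and 4.51, against 3.30, 2.92 and 3.18 in culture. The group means differed by -1.22 for WT GFP+ against GFP- cells and by -0.94 for Pfp/Rag2-/- GFP+ cells against unsorted Pfp/Rag2-/- tumours, without overlap of the libraries in either case. The other differences, from -0.50 for WT GFP+ cells against unsorted WT tumours to 0.15 for unsorted Pfp/Rag2-/- against unsorted WT tumours, had overlapping libraries. Between the sorted hosts the Pfp/Rag2-/- library had the lower value for each library number, but the hosts are different mice and their libraries overlapped. Deviations of same-numbered libraries from their group means correlated there at 0.616, 0.483 and 0.102, the last not best with its own number. In 5 of the 6 groups the library numbered 1 had the highest value. No p-value is given for this difference, which sums over members.

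**Figure D1:**
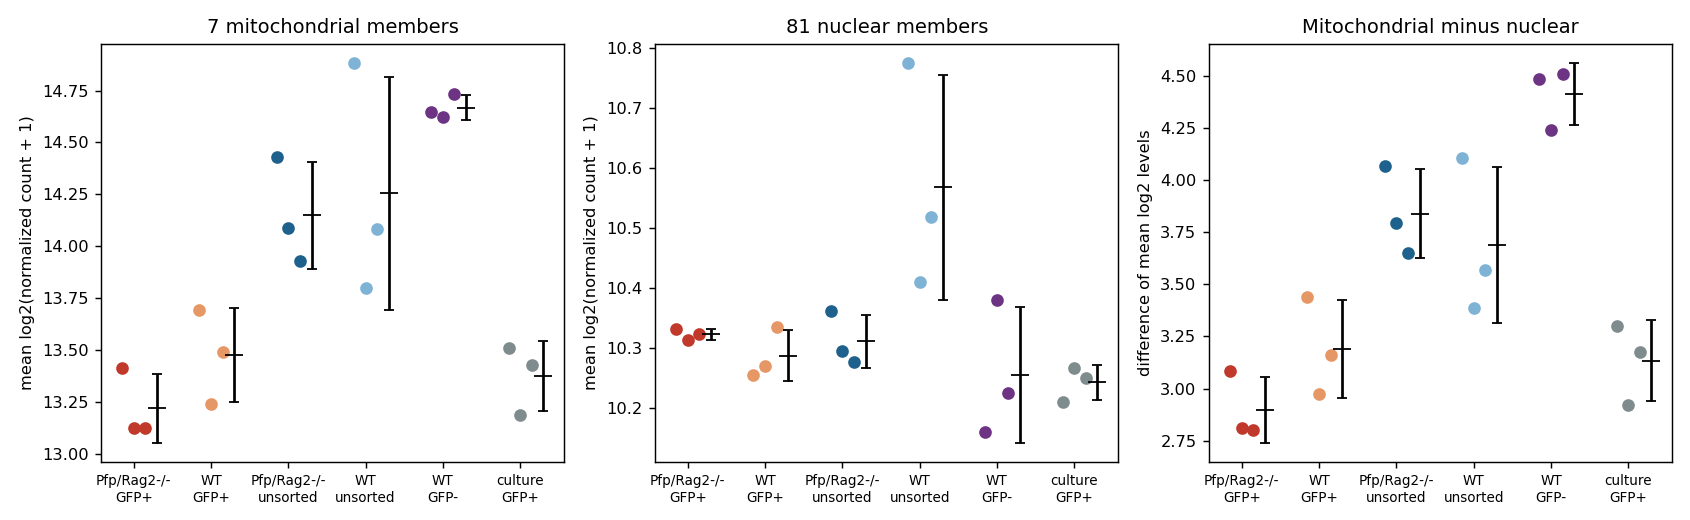
Mean log2(normalized count + 1) of the 7 read mitochondrial members (left), of the 81 nuclear members (middle), and their difference within each library (right), for the 6 groups. Points are libraries, bars are mean ± SD (n = 3), and the vertical axes do not start at 0; the 3 GFP- libraries lie above the 3 WT GFP+ libraries on the left and right.

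Per kilobase of exon, the order of the mitochondrial genes was the same in Pfp/Rag2-/- GFP+ cells and in GFP- cells except that mt-Nd4 and mt-Nd6 changed places. The mean level per kilobase in Pfp/Rag2-/- GFP+ cells was 44447 for mt-Co1, 24315 for mt-Cytb, 11022 for mt-Nd1, 6562 for mt-Nd2, 4253 for mt-Nd5, 3756 for mt-Nd4 and 2611 for mt-Nd6. On the same scale the highest nuclear members there were Cox8a (7462) and Cox6a1 (6734), small subunits of complex IV, and Atp5b (6304), the catalytic beta subunit of the ATP synthase. In GFP- cells, on this scale, all 7 read mitochondrial genes stood above every nuclear member, the lowest of them, mt-Nd4, at 10299 and the highest nuclear member, Cox8a, at 8064. The length used was that of all annotated exons of a gene together. For Atp5b it was 4237 bases, against 1916 in its longest protein-coding transcript, and for Cox8a 619 against 550. For mt-Nd1 both lengths are 957. The order of nuclear members, and that between genomes, therefore depends on the length used, and no other length was tried. Library selection for polyadenylated RNA bears on such comparisons between genomes, since human mt-Nd6 RNA is known to lack the tail that the other mitochondrial messengers carry. The library kit was directional but the strand setting of the read counting is not given, and mt-Nd6 overlaps the end of mt-Nd5 on the other strand, so reads of these genes may not be fully separated.

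Sorted WT GFP+ cells were compared with GFP- cells of WT tumours to ask how tumour cells differ from the cells around them. All 7 read mitochondrial members were lower in the GFP+ cells, 0 higher and 7 lower, with a median log2 difference of -1.29, against -0.19 for all 16083 genes tested. The 81 nuclear members split, with 30 higher and 19 lower and a median of 0.00. In this comparison 76.4% of all genes were called, 33.7% higher and 42.7% lower, so a call alone says little here. In the same comparison markers were lower for 14 of 15 macrophage and microglia, 9 of 9 T cell, 5 of 5 NK cell, 9 of 9 endothelium, 7 of 8 pericyte and fibroblast and 5 of 5 red blood cell genes and higher for 5 of 6 proliferation genes, and their part was not tested. With library totals the nuclear and mitochondrial members together gave 63 higher and 8 lower, with quantile normalization 53 and 12, with TMM factors 37 and 19, against 30 and 26 as reported. The median of all genes was 0.462 with library totals and 0.219 with quantile normalization.

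The subunit mt-Nd1, which sits where the arms of complex I meet, had 13435, 9914 and 13554 normalized counts in WT GFP+ cells, against 31404, 33236 and 33382 in GFP- cells. All GFP- libraries lay above all GFP+ libraries (log2 difference -1.42, SE 0.14, adjusted p = 0.000194, limma with Benjamini-Hochberg adjustment, as for all adjusted p-values below). For mt-Nd6, the membrane arm subunit encoded on the other strand, the values were 2604, 1739.7 and 1829 in WT GFP+ cells and 6067, 6087 and 6151 in GFP- cells. The groups again did not overlap (log2 difference -1.59, SE 0.16, adjusted p = 0.000196). The proton-pumping subunit mt-Nd4 (-1.38, adjusted p = 0.000224) and its neighbour mt-Nd5 (-1.29, adjusted p = 0.0003) differed as much. These 4 genes were also called lower with TMM factors, quantile normalization and library totals.

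The remaining 3 mitochondrial genes depended on the scaling. The complex IV subunit mt-Co1 had 79318, 65657 and 75015 in WT GFP+ cells, against 138959.8, 138112 and 144582 in GFP- cells (log2 difference -0.94, SE 0.13, adjusted p = 0.0007), and its difference was 0.26 with quantile normalization and -0.29 with library totals, neither past the threshold. Cytochrome b, mt-Cytb, had 32154, 24684 and 30187 in WT GFP+ cells, against 42379, 40657 and 47175 in GFP- cells (log2 difference -0.59, SE 0.13, adjusted p = 0.00649), and turned to 0.58 with quantile normalization (adjusted p = 0.0293) and to 0.07 with library totals (adjusted p = 0.706). For mt-Nd2, another membrane arm subunit of complex I, the values were 8864, 6097 and 8040.3 in WT GFP+ cells and 16207, 15275 and 18149 in GFP- cells (log2 difference -1.12, SE 0.16, adjusted p = 0.000717), with -0.35 and -0.47 under those scalings, neither past the threshold. The mitochondrial minus nuclear difference between the groups was -0.72 with quantile normalization. Library totals and TMM factors, each 1 factor per library, cannot change it beyond the pseudocount, and gave -1.22.

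**Figure D2:**
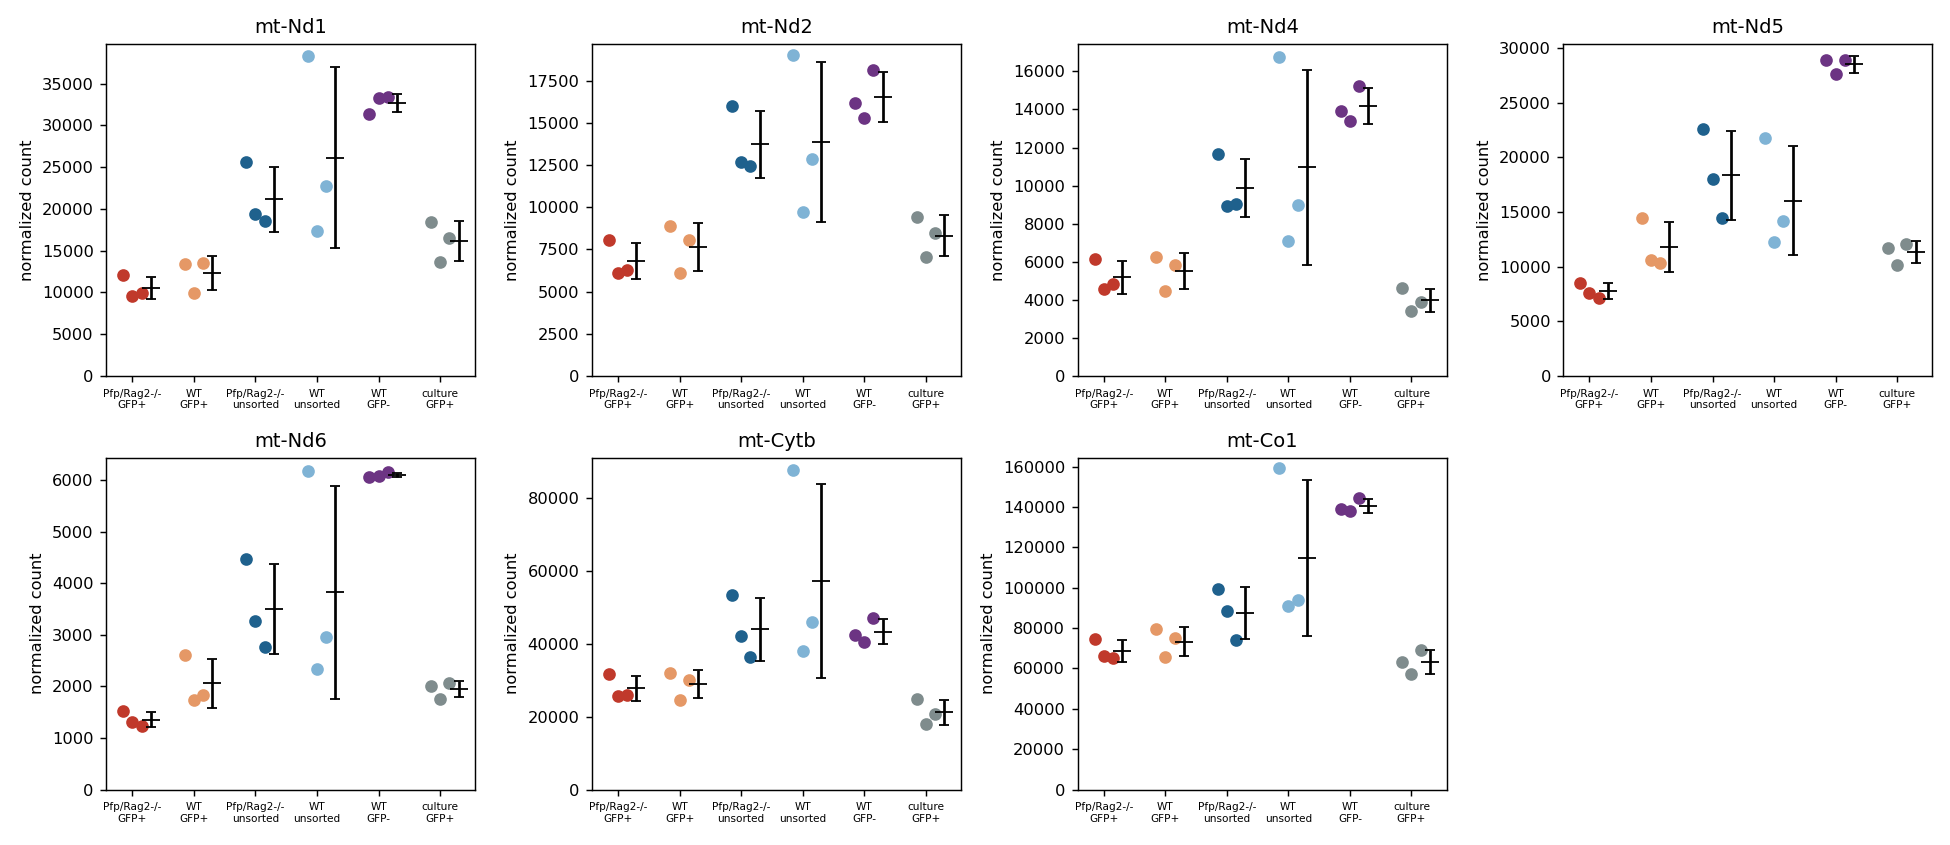
Normalized count of each of the 7 read mitochondrial genes in the 6 groups. Points are libraries and bars are mean ± SD (n = 3); for each gene the WT GFP+ libraries lie below the GFP- libraries, and unsorted WT library 1 is the highest unsorted library for 6 of the 7.

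Among nuclear members, GFP+ cells exceeded GFP- cells for several accessory and core subunits. Ndufa4, first assigned to complex I and now placed in complex IV, had 2879.8, 2951 and 3326 in WT GFP+ cells, against 945, 844 and 1027 in GFP- cells, without overlap (log2 difference 1.70, SE 0.11, adjusted p = 4.5e-05). Ndufb9, an accessory subunit of the complex I membrane arm, had 3988, 4077 and 4431 in WT GFP+ cells, against 1338, 1522 and 1558 in GFP- cells (log2 difference 1.50, SE 0.09, adjusted p = 4.29e-05). Ndufa12, an accessory subunit at the joint of the peripheral arm, was higher by 1.07 (adjusted p = 0.00071), and Atp5b by 0.84 (adjusted p = 0.000709). The complex I core subunit Ndufs1, which carries iron-sulfur clusters, differed by 0.27 (adjusted p = 0.0251), a call lost without WT GFP+ library 1, 2 or 3 (adjusted p = 0.0718, 0.0528 and 0.0895) or GFP- library 1 (0.066).

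Others ran the opposite way. Sdha, the flavoprotein of succinate dehydrogenase that oxidizes succinate, had 1650.1, 1582 and 1735 in WT GFP+ cells, against 4566, 5993 and 5051 in GFP- cells, without overlap (log2 difference -1.64, SE 0.12, adjusted p = 6.07e-05). The other 3 subunits of complex II, Sdhb, Sdhc and Sdhd, were not called, at -0.06, -0.16 and -0.21. Cox7a2l, counted here with complex IV, had 1211, 1223 and 1179 in WT GFP+ cells, against 2439.7, 2500.3 and 2488 in GFP- cells (log2 difference -1.04, SE 0.07, adjusted p = 5.51e-05). Ndufs8, an iron-sulfur core subunit of complex I, fell by 0.90 (adjusted p = 0.000634) and Uqcrc1, a core subunit of complex III, by 0.87 (adjusted p = 0.000705), though neither was called with library totals. Cox4i1, the widespread form of the complex IV subunit 4, had a log2 difference of -0.38 (adjusted p = 0.0214), which was 0.28 with library totals and 0.29 with quantile normalization (adjusted p = 0.0133 and 0.0108). The call was lost without WT GFP+ library 1, 2 or 3 or GFP- library 1 (adjusted p = 0.0643, 0.058, 0.0593 and 0.0515).

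**Figure D3:**
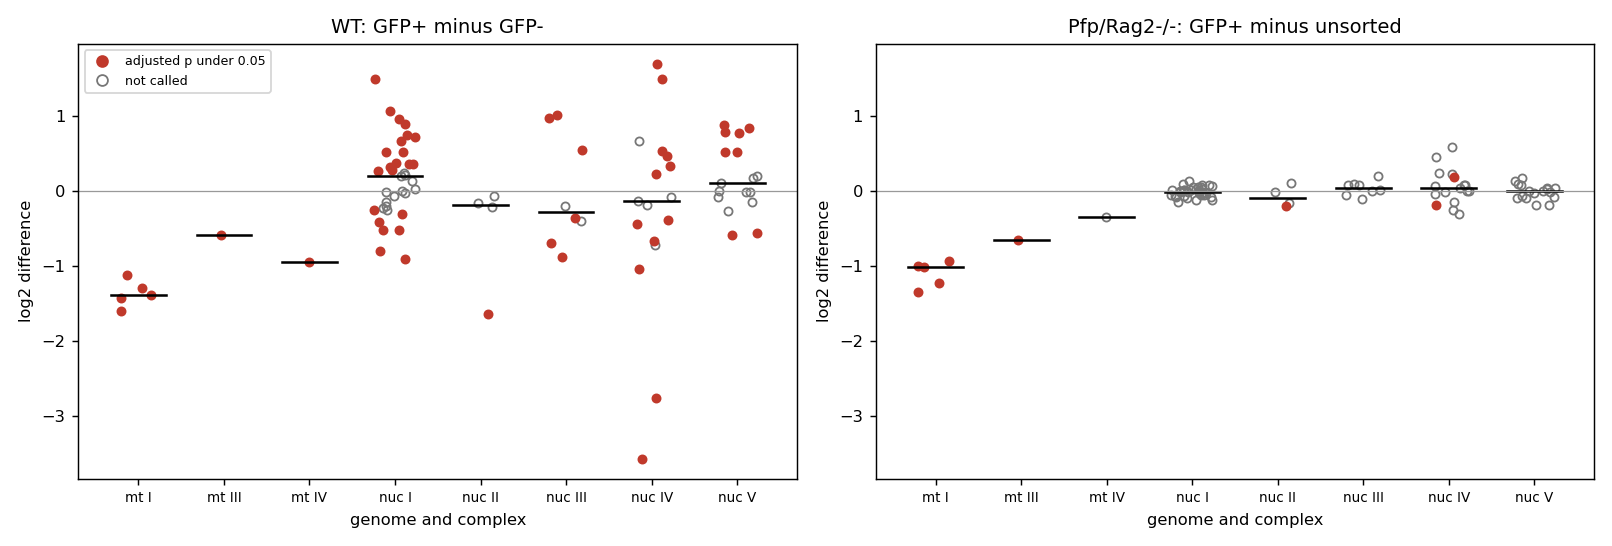
Log2 difference of each tested member in WT GFP+ minus GFP- cells (left) and in Pfp/Rag2-/- GFP+ cells minus unsorted Pfp/Rag2-/- tumours (right), by genome (mt, mitochondrial; nuc, nuclear) and complex (I to V). Each point is a gene, filled where the adjusted p was under 0.05, and black lines are medians; the mitochondrial genes of complex I lie below 0 on both sides, with medians of -1.38 and -1.01.

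Sorted GFP+ cells were next compared with unsorted tumours of the same host, which hold tumour and host cells together. In Pfp/Rag2-/- hosts the 2 genomes parted: 6 of the 7 read mitochondrial members were lower in the GFP+ cells and 0 higher, while 1 of 81 nuclear members was higher and 2 were lower. The median log2 difference was -0.995 over the mitochondrial members, 0.01 over the nuclear members and -0.06 over all 15324 genes tested, of which 30.2% were called, 11.1% higher and 19.1% lower. The nuclear members lay within -0.30 and 0.59. The count of 6 lower mitochondrial members was the same with TMM factors, quantile normalization and library totals, and the nuclear calls moved: members of both sets together gave 7 higher and 6 lower with TMM factors, 3 and 7 with quantile normalization and 2 and 7 with library totals, against 1 and 8 as reported.

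In this comparison mt-Nd5 had 8523, 7608 and 7139.6 in Pfp/Rag2-/- GFP+ cells, against 22592, 18049 and 14483 in unsorted Pfp/Rag2-/- tumours, without overlap (log2 difference -1.22, SE 0.16, adjusted p = 0.00251). For mt-Nd6 the values were 1519, 1306 and 1241 in Pfp/Rag2-/- GFP+ cells, against 4474, 3270.1 and 2759 in unsorted Pfp/Rag2-/- tumours (log2 difference -1.34, SE 0.17, adjusted p = 0.00249). For mt-Nd2 they were 8039, 6089 and 6306 in Pfp/Rag2-/- GFP+ cells, against 16036, 12716 and 12449 in unsorted Pfp/Rag2-/- tumours (log2 difference -1.01, SE 0.13, adjusted p = 0.00293). The genes mt-Nd1 and mt-Nd4 differed by -0.995 (adjusted p = 0.00343) and -0.93 (adjusted p = 0.00423), so all 5 read complex I genes were lower. The call of mt-Cytb (-0.65, adjusted p = 0.0196) was lost without Pfp/Rag2-/- GFP+ library 2 or 3 or unsorted library 2 (adjusted p = 0.074, 0.0769 and 0.0561), and mt-Co1 was not called (-0.34, adjusted p = 0.101). The total count was 5 without Pfp/Rag2-/- GFP+ library 2 or without library 3. Markers of neurons fell in 7 of 8, of astrocytes in 5 of 6, of oligodendrocytes in 3 of 7 and of macrophages and microglia in 4 of 15 list genes, 1 more being higher, in the same comparison, with neuron sums of 706 to 741 in GFP+ cells and 2334 to 7008 in unsorted tumours and astrocyte sums of 4389 to 4455 in GFP+ cells and 8587 to 15372 in unsorted tumours, and their part in the result was not tested.

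The few nuclear calls in Pfp/Rag2-/- hosts were small. Cox6a1, the widespread form of complex IV subunit 6a, differed by 0.18 (adjusted p = 0.0218), Sdha by -0.20 (adjusted p = 0.0427) and Cox7a2l by -0.18 (adjusted p = 0.0233). None of the 3 was called without GFP+ library 2 (adjusted p = 0.0752, 0.123 and 0.0774) or library 3 (0.0758, 0.0902 and 0.063). Sdha and Cox7a2l were not called with TMM factors either (adjusted p = 0.118 and 0.0867). The core subunits Ndufs1, Uqcrc1, Cox4i1 and Atp5b were not called, at -0.06, 0.09, 0.09 and 0.04.

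In WT hosts the same comparison gave 1 mitochondrial and 8 nuclear members lower and 0 higher, where 16.8% of all genes were called, 6.46% higher and 10.3% lower. All 7 read mitochondrial members had negative differences, with a median of -0.82, but the unsorted WT libraries were far apart. The called gene, mt-Nd1, had 13435, 9914 and 13554 in WT GFP+ cells, against 38310.1, 17400.3 and 22769 in unsorted WT tumours (log2 difference -1.02, SE 0.28, adjusted p = 0.0494). Of its 3 unsorted values, that of library 1 is the highest, and the call was lost without GFP+ library 1, 2 or 3 or without unsorted library 3 (adjusted p = 0.0873, 0.168, 0.0831 and 0.123). Among nuclear members, Atp5j, a coupling factor in the stalk of the ATP synthase, was at -0.51 (adjusted p = 0.0292), and Uqcrfs1, the Rieske iron-sulfur protein of complex III, at -0.42 (adjusted p = 0.0179). Ndufc1 and Ndufa1, small accessory subunits of complex I, were at -0.39 and -0.47 (adjusted p = 0.0292 and 0.0458). These calls were not stable: without WT GFP+ library 1, 2 or 3 there were 1, 0 and 5 calls, and without unsorted library 1 or 3 there were 15 and 0. With edgeR the mitochondrial members gave 0 higher and 0 lower, with 5 lower at an unadjusted p under 0.05, as with limma, and DESeq2 called 5 lower. The core subunits Ndufs1, Uqcrc1, Cox4i1 and Atp5b were at -0.27, 0.03, -0.14 and 0.06 (adjusted p = 0.0454, 0.81, 0.331 and 0.751). Markers of macrophages and microglia (13 of 15), endothelium (8 of 9), pericytes and fibroblasts (6 of 10), neurons (6 of 8) and astrocytes (6 of 6) were lower in the same comparison, and their part was not tested.

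Host differences in tumour cells were read from sorted GFP+ cells of Pfp/Rag2-/- and WT hosts. Nuclear members of the ATP synthase and of complex II were mostly lower in Pfp/Rag2-/- GFP+ cells where called, those of complexes I and III were called in both directions, and those of complex IV more often higher. Of 81 nuclear members, 11 were higher and 21 lower, and of the 7 read mitochondrial members 0 were higher and 2 lower, where 30.4% of all 14807 genes were called, 15% higher and 15.3% lower. Complex V had 1 higher and 8 lower of 17, complex II 0 and 2 of 4, complex I 5 and 8 of 35, complex III 1 and 1 of 8, and complex IV 4 and 2 of 17. The median log2 difference was -0.16 over mitochondrial, -0.03 over nuclear members and 0.02 over all genes. The split depended on scaling, with 19 higher and 14 lower with library totals, where the median of all genes was 0.102, and 16 and 14 with quantile normalization, against 11 and 23 as reported. Markers of other cell types moved with this comparison: 6 of 9 pericyte and fibroblast and 4 of 7 oligodendrocyte markers were higher in Pfp/Rag2-/- GFP+ cells, and 2 of 6 astrocyte, 1 of 5 neuron and 4 of 6 proliferation markers were lower, while 0 of 15 macrophage and microglia markers were called by limma. Oligodendrocyte sums were 16730.0 to 18428 in Pfp/Rag2-/- GFP+ cells and 8489 to 16028 in WT GFP+ cells, and the part of these markers in the result was not tested.

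Among the genes lower in Pfp/Rag2-/- GFP+ cells, Atp5e, the epsilon subunit of the ATP synthase central stalk, had 1899, 1958 and 1790.4 in Pfp/Rag2-/- GFP+ cells, against 2487, 2443 and 2335 in WT GFP+ cells, without overlap (log2 difference -0.36, SE 0.05, adjusted p = 0.00372). Atp5g1, one of the genes for the rotating c ring of the ATP synthase, had 1715, 1664 and 1649.5 in Pfp/Rag2-/- GFP+ cells, against 2136, 2227 and 2035 in WT GFP+ cells (log2 difference -0.35, SE 0.05, adjusted p = 0.00381). Ndufa12 had 996, 966 and 1013 in Pfp/Rag2-/- GFP+ cells, against 1257, 1327 and 1240.4 in WT GFP+ cells (log2 difference -0.36, SE 0.05, adjusted p = 0.00361). These 3 genes were called with any single library left out, and so were Cox5b, a zinc-binding subunit of complex IV (-0.35, adjusted p = 0.00955), and Sdhb, the iron-sulfur subunit of complex II (-0.26, adjusted p = 0.00543). The catalytic Atp5b differed by -0.29 (adjusted p = 0.0132), a call lost without Pfp/Rag2-/- library 2 or 3 (adjusted p = 0.0505 and 0.0524) or with quantile normalization (0.133). Without both libraries numbered 1, in which Ptprc was high, a setting chosen after seeing the data, the total was 10 calls, 3 higher and 7 lower, and Cox5b, Sdhb and Atp5b were not among them (adjusted p = 0.0663, 0.0572 and 0.066).

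Of the genes higher in Pfp/Rag2-/- GFP+ cells, Uqcrfs1 had 1689, 1777 and 1783 in Pfp/Rag2-/- GFP+ cells, against 1261, 1303 and 1368 in WT GFP+ cells, without overlap (log2 difference 0.42, SE 0.05, adjusted p = 0.00216). Ndufs4, an accessory subunit needed to complete the NADH-oxidizing module of complex I, had 1125, 1083 and 1113 in Pfp/Rag2-/- GFP+ cells, against 742, 771 and 889.6 in WT GFP+ cells (log2 difference 0.47, SE 0.08, adjusted p = 0.00543). Both were called with any single library left out. Ndufa6, another complex I accessory subunit, was at 0.32 (adjusted p = 0.0143), and lost its call without Pfp/Rag2-/- library 3 or WT library 2 (adjusted p = 0.0527 and 0.0542). Without Pfp/Rag2-/- library 1, 2 or 3 the members called numbered 21, 17 and 18, and without WT library 1 or 2 they numbered 21 and 19. Core subunits Ndufs1, Sdha, Uqcrc1 and Cox4i1 were not called, at 0.10, 0.01, -0.10 and -0.06.

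The mitochondrial calls were mt-Nd5 and mt-Nd6, the overlapping pair. The gene mt-Nd5 had 8523, 7608 and 7139.6 in Pfp/Rag2-/- GFP+ cells, against 14433, 10577 and 10342 in WT GFP+ cells, without overlap (log2 difference -0.59, SE 0.14, adjusted p = 0.0186). For mt-Nd6 the values were 1519, 1306 and 1241 in Pfp/Rag2-/- GFP+ cells, against 2604, 1739.7 and 1829 in WT GFP+ cells (log2 difference -0.58, SE 0.16, adjusted p = 0.0314). Neither call held without Pfp/Rag2-/- library 2 (adjusted p = 0.0661 and 0.0987) or library 3 (0.0708 and 0.105). The other 5 mitochondrial genes lay between -0.21 for mt-Nd1 and -0.06 for mt-Cytb, all with overlapping groups.

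In unsorted tumours the nuclear members that were called were lower in Pfp/Rag2-/- hosts, among them subunits of all 5 complexes. Of 81 nuclear members, 0 were higher and 29 lower in unsorted Pfp/Rag2-/- tumours than in unsorted WT tumours, and of the 7 read mitochondrial members 0 were called, where 29.9% of all 15448 genes were called, 14.8% higher and 15.1% lower. No mitochondrial member had an unadjusted p under 0.05 with limma, edgeR or DESeq2. For nuclear members higher in Pfp/Rag2-/- tumours the count was 1 at an unadjusted p under 0.05 with limma, and 0 with edgeR and with DESeq2, but 5 were called higher and 33 lower without unsorted WT library 1. The median log2 difference was -0.27 over nuclear members, -0.06 over mitochondrial members and 0.05 over all genes, and 71 of 81 nuclear members had a negative difference. Signs were not counted over all genes or without unsorted WT library 1, and members may vary together. Complex V gave 8 lower of 17, complex I 13 of 35, complex II 3 of 4, complex IV 4 of 17 and complex III 1 of 8.

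Cox5a, a nuclear subunit on the matrix side of complex IV, had 792, 1106 and 1073 in unsorted Pfp/Rag2-/- tumours, against 1885, 1398 and 1465 in unsorted WT tumours, without overlap (log2 difference -0.68, SE 0.16, adjusted p = 0.0203). Sdhb had 2028, 1967 and 1856 in unsorted Pfp/Rag2-/- tumours, against 2522, 3334 and 3279 in unsorted WT tumours (log2 difference -0.63, SE 0.12, adjusted p = 0.00771). Atp5g3, a further c ring gene, had 4007, 3738 and 3469 in unsorted Pfp/Rag2-/- tumours, against 5935, 5214 and 5380.4 in unsorted WT tumours (log2 difference -0.56, SE 0.09, adjusted p = 0.004). Those calls held with any single library left out, whereas that of Atp5e (-0.57, adjusted p = 0.0199) was lost without Pfp/Rag2-/- library 2 or 3 (adjusted p = 0.0768 and 0.0714). Without Pfp/Rag2-/- library 1, 2 or 3 the members called numbered 18, 14 and 17. The core subunits Ndufs1, Sdha, Uqcrc1, Cox4i1 and Atp5b were at -0.11, -0.15, -0.15, -0.29 and -0.27 (adjusted p = 0.281, 0.365, 0.197, 0.0648 and 0.118). Macrophage and microglia markers, 14 of 15 called lower, and T cell markers, 8 of 9 tested called lower, moved with this comparison, with T cell sums of 214 to 292 in unsorted Pfp/Rag2-/- and 632 to 1066 in unsorted WT tumours. Proliferation markers were lower for 5 of 6 and red blood cell markers for 2 of 4, and 2 of 10 pericyte and fibroblast and 2 of 7 oligodendrocyte markers were higher. The part of these markers in the result was not tested.

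The sorted and unsorted host comparisons share no library, so their calls can be set side by side. Of the 23 members lower in Pfp/Rag2-/- GFP+ cells and the 29 lower in unsorted Pfp/Rag2-/- tumours, 18 were on both lists, 78.3% of the first and 62.1% of the second, and 0 were called in opposite directions. Over all genes, 1092 were lower in both, 48.1% of the 2269 lower in sorted cells and 46.9% of the 2326 lower in unsorted tumours, and whether the members differ from that was not tested. They were Atp5c1, Atp5d, Atp5e, Atp5g1, Atp5g3, Atp5h and Atp5o of the ATP synthase, Ndufa9, Ndufa10, Ndufa12, Ndufs3, Ndufs8 and Ndufv3 of complex I, Sdhb and Sdhd of complex II, Uqcr11 of complex III, and Cox5b and Cox6b1 of complex IV. All are nuclear. Proliferation markers were lower too, 4 of 6 in sorted and 5 of 6 in unsorted Pfp/Rag2-/- samples, with sums of 29397 to 30632 in Pfp/Rag2-/- and 35804 to 38693 in WT GFP+ cells, and their part was not tested.

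Genes of this machinery are known targets of the ETS factor GABPA, of NRF1 and of YY1, so the promoters were searched on both strands for their core letters in 300 bases, 250 before and 50 after the annotated start (RefSeq, GRCm38.p6). A promoter was in the table for 68 of 84 nuclear members. The ETS letters CCGGAAG occurred in 23.5% of them, against 12.9% of 17492 protein-coding genes. The palindromic NRF1 site occurred in 7.35%, against 1.47%, and AAGATGG of YY1 in 16.2%, against 7.18%. The hypoxia response core ACGTG was in 26.5%, against 23.2%, and TATAAA in 10.3%, against 14.8%. Of the 18 genes lower in both host comparisons 8 held CCGGAAG, 0 the NRF1 site, 1 AAGATGG, 5 ACGTG and 0 TATAAA, and no frequency was tested. The promoters of Atp5e and Sdhb are printed as examples, with that motif or its reverse complement CTTCCGG in capitals (Atp5e at chr2:174464052-174464351, minus strand; Sdhb at chr4:140961021-140961320, plus strand):
Atp5e: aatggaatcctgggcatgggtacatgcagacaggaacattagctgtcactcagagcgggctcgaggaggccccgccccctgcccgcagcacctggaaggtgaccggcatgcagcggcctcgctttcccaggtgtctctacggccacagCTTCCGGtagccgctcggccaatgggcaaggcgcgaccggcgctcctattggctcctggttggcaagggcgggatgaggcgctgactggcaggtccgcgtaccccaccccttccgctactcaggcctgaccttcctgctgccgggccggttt
Sdhb: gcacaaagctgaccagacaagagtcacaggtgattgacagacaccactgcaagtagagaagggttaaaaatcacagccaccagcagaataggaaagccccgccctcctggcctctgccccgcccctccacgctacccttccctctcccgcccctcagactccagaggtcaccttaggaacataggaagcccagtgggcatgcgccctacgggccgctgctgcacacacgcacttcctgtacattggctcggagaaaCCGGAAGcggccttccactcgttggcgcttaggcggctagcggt

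**Figure D4:**
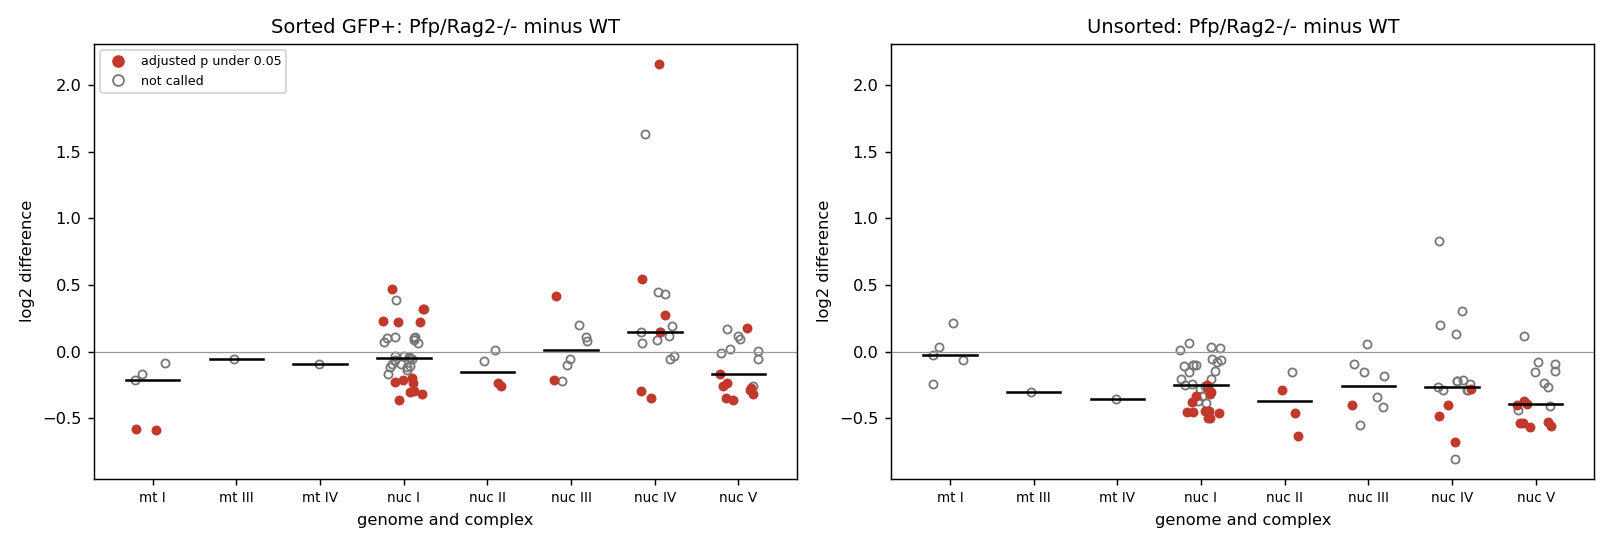
Log2 difference of each tested member, Pfp/Rag2-/- minus WT, in sorted GFP+ cells (left) and in unsorted tumours (right), by genome (mt, mitochondrial; nuc, nuclear) and complex (I to V). Each point is a gene, filled where the adjusted p was under 0.05, and black lines are medians; on the right no point above 0 is filled.

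Whether the host difference itself differed between sorted cells and unsorted tumours was tested as an interaction over 12 libraries. It was called for 1 of 81 nuclear members, higher, and for 0 of 7 mitochondrial members, where 0.934% of all 16161 genes were called, 0.223% higher and 0.712% lower. That member was Uqcrfs1, with 1689, 1777 and 1783 in Pfp/Rag2-/- GFP+ and 1261, 1303 and 1368 in WT GFP+ cells, and with 1539.6, 1708 and 1696 in unsorted Pfp/Rag2-/- and 1887, 1717 and 1675 in unsorted WT tumours (log2 difference 0.51, SE 0.09, adjusted p = 0.0374). The call was lost without any single library except WT GFP+ library 3 and unsorted WT libraries 1 and 2, with adjusted p-values up to 0.114. Of the mitochondrial members 1 had an unadjusted p under 0.05 with limma, with edgeR and with DESeq2. The interaction was positive for 76 of 81 nuclear members, with a median of 0.24 against 0.01 over all genes. Members may vary together, and signs were not counted over all genes or without unsorted WT library 1. The nuclear mean log2 level was 10.77 in that library, against 10.41 and 10.52 in unsorted WT libraries 2 and 3. Without unsorted WT library 1, which stood apart, 8 members were called, without library 2 of that group 5, without WT GFP+ library 3 there were 2, and DESeq2 called 12.

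The GFP+ cells of each host were compared with the cultured GFP+ cells to ask what growth in mice changed. These 2 comparisons share the 3 cultured libraries and are given side by side, not as independent results. In Pfp/Rag2-/- GFP+ cells 26 nuclear members were higher and 31 lower, and 2 mitochondrial members higher and 3 lower, where 72.2% of all genes were called, 35.1% higher and 37.1% lower. In WT GFP+ cells 22 nuclear members were higher and 24 lower, and 2 mitochondrial members higher and 1 lower, where 65.6% were called, 30.3% higher and 35.3% lower. The members' share of calls is near the background. In Pfp/Rag2-/- GFP+ cells complex II had 0 higher and 4 lower of 4, complex III 2 and 5 of 8, complex V 4 and 10 of 17, complex IV 10 and 2 of 17, and complex I 10 and 10 of 35. In WT GFP+ cells complex II had 0 and 3 of 4, complex III 2 and 5 of 8, complex V 3 and 3 of 17, complex IV 4 and 3 of 15, and complex I 13 and 10 of 35. The complex IV counts cover unlike sets. Cox4i2 and Ndufa4l2, both among the 10 higher in Pfp/Rag2-/- GFP+ cells, were tested only there. For both, only the Pfp/Rag2-/- libraries reached 10, the filter value. Macrophage and microglia markers were higher than in culture for 15 of 15 genes in both hosts, endothelium markers for 8 of 9 in Pfp/Rag2-/- and 6 of 7 in WT GFP+ cells, and red blood cell markers for 5 of 5 and 3 of 3. Pericyte and fibroblast markers were higher for 7 of 9 in Pfp/Rag2-/- GFP+ cells, and 2 higher and 2 lower of 5 in WT GFP+ cells. Proliferation markers were lower than in culture for 5 of 6 in Pfp/Rag2-/- and 4 of 6 in WT GFP+ cells, and the part of all these was not tested. With quantile normalization or library totals the splits of all members became 38 and 24 or 43 and 23 in Pfp/Rag2-/- GFP+ cells, against 28 and 34 as reported, and library totals put the median of all genes at 0.165. In WT GFP+ cells they became 34 and 12 or 33 and 11, and 29 and 15 with TMM factors, against 24 and 25, and without cultured library 2 they were 17 and 15.

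Within complex I the subunits diverged. Ndufs3, a core subunit of the ubiquinone-binding module, had 1139, 1226 and 1206 in Pfp/Rag2-/- GFP+ cells, 1491, 1542 and 1426 in WT GFP+ cells and 836, 853 and 838 in culture, so both in vivo groups lay above culture (log2 differences 0.50 and 0.82, adjusted p = 1.6e-05 and 3.67e-06). Ndufs4 had 1125, 1083 and 1113 in Pfp/Rag2-/- GFP+ cells, 742, 771 and 889.6 in WT GFP+ cells and 572, 619 and 581 in culture (log2 differences 0.91 and 0.43, adjusted p = 6.19e-07 and 0.0016). Ndufs1 went the other way, with 1778, 1960.1 and 2120.1 in Pfp/Rag2-/- GFP+, 1799.5, 1743 and 1906 in WT GFP+ and 2235, 2254 and 2320.1 in cultured cells (log2 differences -0.22 and -0.32, adjusted p = 0.0107 and 0.000629). The first of these calls was lost with quantile normalization or library totals. Ndufv3, an accessory subunit beside the NADH site, was higher in WT GFP+ cells by 0.45 (adjusted p = 0.00023), and Ndufa6 in Pfp/Rag2-/- GFP+ cells by 0.56 (adjusted p = 1.64e-05). Ndufa10 and Ndufa12 were lower in Pfp/Rag2-/- GFP+ cells, at -0.47 and -0.47 (adjusted p = 6.25e-06 and 1.66e-05).

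Beyond complex I, Atp5d, the delta subunit of the ATP synthase central stalk, had 3465, 3393 and 3342 in Pfp/Rag2-/- GFP+ cells, 3837, 3891 and 3729 in WT GFP+ cells and 5152, 5378 and 5291 in culture. Both in vivo groups lay below culture (log2 differences -0.63 and -0.47, adjusted p = 6.3e-07 and 2.78e-05). Atp5b had 26708 ± 294 in Pfp/Rag2-/- GFP+ cells, 32572 ± 1433 in WT GFP+ cells and 37716 ± 228 in culture (SD, n = 3; log2 differences -0.50 and -0.21, adjusted p = 3.59e-06 and 0.00667). Sdha was lower in both, at -0.25 and -0.26 (adjusted p = 0.000318 and 0.002), and so was Uqcrc1, at -0.33 and -0.23 (adjusted p = 7.53e-05 and 0.00293). Uqcrh, the hinge protein of complex III, was higher in Pfp/Rag2-/- GFP+ cells by 0.60 (adjusted p = 1.97e-05), and Uqcrfs1 was lower in WT GFP+ cells, at -0.40 (adjusted p = 0.00123). With quantile normalization Sdha was not called in Pfp/Rag2-/- GFP+ cells nor Uqcrc1 in WT GFP+ cells (adjusted p = 0.158 and 0.09). Cox4i1 was not called in either comparison, at -0.03 and 0.03.

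The mitochondrial genes also split. The level of mt-Nd1 was 12053, 9624 and 9968 in Pfp/Rag2-/- GFP+ cells, 13435, 9914 and 13554 in WT GFP+ cells and 18405, 13664 and 16512 in culture, lower in vivo (log2 differences -0.61 and -0.40, adjusted p = 0.00114 and 0.033). The second call was lost without WT GFP+ library 2 or cultured library 1 or 3 (adjusted p = 0.0918, 0.132 and 0.0956). It was also lost with edgeR (0.103), TMM factors (0.0578), quantile normalization (0.0856), library totals (0.0847), robust variances (0.055) and 1 fit over all libraries (0.155). By contrast mt-Nd4 had 6142, 4551 and 4833 in Pfp/Rag2-/- GFP+ cells, 6252, 4443 and 5804 in WT GFP+ cells and 4595, 3402 and 3904 in culture, higher in vivo (log2 differences 0.38 and 0.47, adjusted p = 0.0241 and 0.0174). Cytochrome b was likewise higher, at 0.39 and 0.45 (adjusted p = 0.0158 and 0.0141). Without cultured library 2 or 3 neither gene was called in either comparison, and mt-Nd4 was not called without Pfp/Rag2-/- GFP+ library 1 or WT GFP+ library 1 (lowest and highest adjusted p over these omissions 0.0505 and 0.099). With edgeR neither gene was called in Pfp/Rag2-/- GFP+ cells (adjusted p = 0.0773 for mt-Nd4 and 0.0519 for mt-Cytb), nor with robust variances in limma (0.0799 and 0.0585), nor in either host in 1 fit over all libraries (0.122 to 0.194). In Pfp/Rag2-/- GFP+ cells mt-Nd5 and mt-Nd6 were lower than in culture (-0.55 and -0.53, adjusted p = 0.000245 and 0.000482). In WT GFP+ cells they were at 0.04 and 0.06, not called.

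Complex IV is built with alternative isoforms in some tissues, and several of these were measured at low levels. Ndufa4l2 (chromosome 10, 127514967 to 127517154), a paralogue of Ndufa4 known to be induced by hypoxia and abundant in pericytes, had 31.96, 18.4 and 19.3 in Pfp/Rag2-/- GFP+ cells, against 2.87, 4.75 and 5.53 in WT GFP+ cells, without overlap (log2 difference 2.16, SE 0.38, adjusted p = 0.0068). In GFP- cells it had 29.4, 18.5 and 74.9, and in culture 4.72, 6.60 and 6.68. WT GFP+ cells were lower than GFP- cells (log2 difference -2.76, SE 0.55, adjusted p = 0.00367), and Pfp/Rag2-/- GFP+ cells were higher than culture (log2 difference 1.76, SE 0.33, adjusted p = 0.00113), though not with quantile normalization (adjusted p = 0.0595). WT GFP+ cells were lower than unsorted WT tumours (-2.28, adjusted p = 0.0192), a call lost without WT GFP+ library 2 or unsorted library 2 or 3 (adjusted p = 0.058, 0.06 and 0.0813). Its reads numbered 3 to 57 per library, so single values are imprecise. In each of these comparisons only the libraries of the higher group reached 10, the filter value. The gene was thus tested only because that group was high, and its calls and missing overlap are not independent of this.

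Cox4i2 (chromosome 2, 152754173 to 152765037), the lung and hypoxia isoform of subunit 4, had 15.5, 11.9 and 14.7 in Pfp/Rag2-/- GFP+ cells, 3.83, 0.9501 and 11.1 in WT GFP+ cells, 41.2, 58.5 and 74.9 in GFP- cells and 0, 0.943 and 0.954 in culture. WT GFP+ cells were lower than GFP- cells (log2 difference -3.57, SE 0.68, adjusted p = 0.00285). Cultured cells held 2 reads in all. The ratio of Pfp/Rag2-/- GFP+ cells (46 reads) to culture was 22.3 (adjusted p = 0.000204, limma). Its exact Clopper-Pearson 95% interval of 5.83 to 189.5 covers counting error only. In that comparison only the Pfp/Rag2-/- libraries reached the filter value. The gene was thus tested against culture only because that group was high, and its call is not independent of this. For WT GFP+ cells (17 reads) the ratio to culture was 8.46, with an interval of 2.01 to 75.5. That difference did not pass the filter and was not tested with limma. The host difference in sorted cells was not called (1.63, adjusted p = 0.1), but was without WT library 3 (2.29, adjusted p = 0.0171). Pericyte and fibroblast markers, 6 of 9 tested called higher in Pfp/Rag2-/- than in WT GFP+ cells, moved with these genes: their sums were 5690.1, 3262 and 2239 in Pfp/Rag2-/- GFP+ libraries 1, 2 and 3, 516 to 1053 in WT GFP+ cells, 3033 to 4292 and 1009 to 2599 in unsorted Pfp/Rag2-/- and WT tumours, 935 to 5502 in GFP- cells and 2250.1 to 2453 in culture. The culture sum was almost all Col1a1, at 2138 to 2303, while Kcnj8 was at 0 there and Rgs5, Abcc9 and Vtn were at 0 to 1.91. Their part in the result was not tested.

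**Figure D5:**
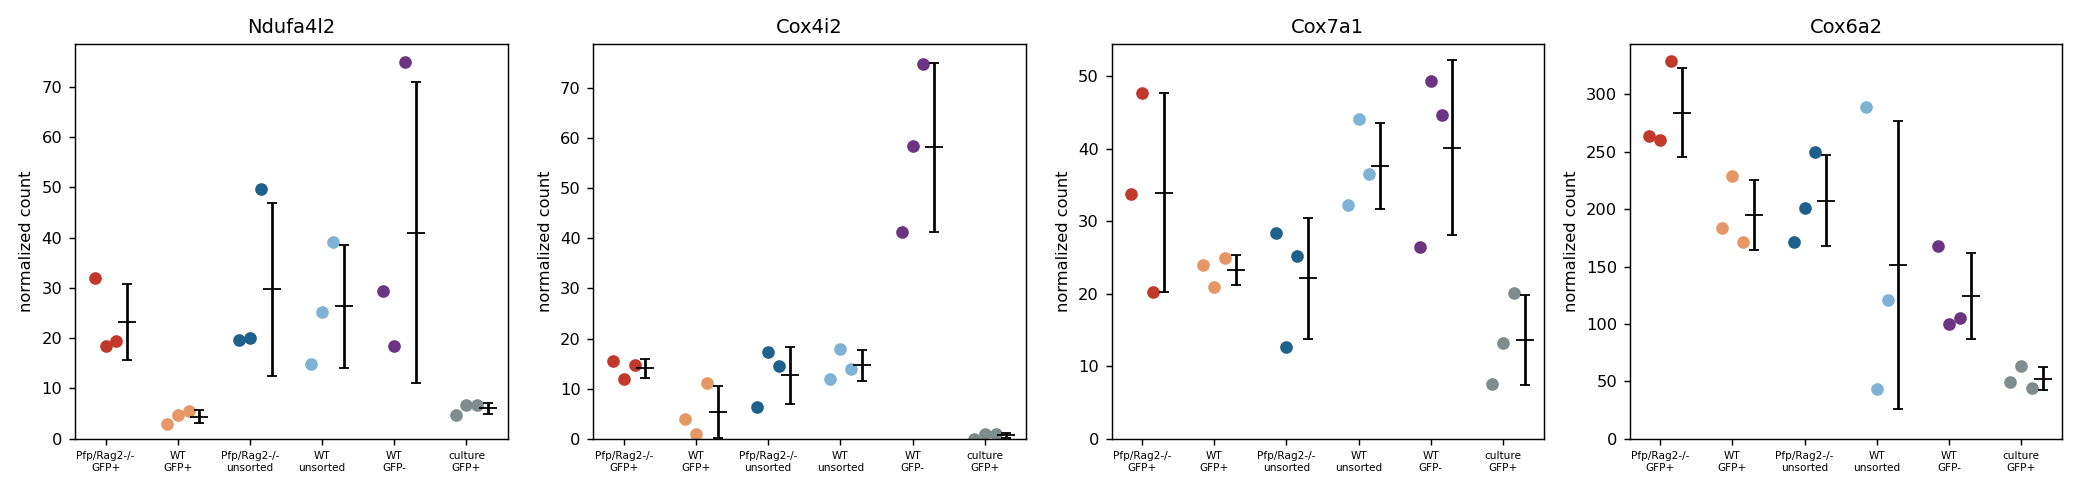
Normalized count of 4 isoforms of complex IV subunits in the 6 groups. Points are libraries and bars are mean ± SD (n = 3); the WT GFP+ libraries lie below the Pfp/Rag2-/- GFP+ libraries for Ndufa4l2, Cox4i2 and Cox6a2, and culture is lowest for Cox4i2, Cox7a1 and Cox6a2 by mean.

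Cox6a2, the heart and muscle form of subunit 6a, had 264, 259.9 and 329 in Pfp/Rag2-/- GFP+ cells, 184, 229 and 171 in WT GFP+ cells and 49.1, 63.2 and 43.9 in culture. Both in vivo groups exceeded culture without overlap (log2 difference 2.43, SE 0.16, adjusted p = 1.68e-06 for Pfp/Rag2-/-, and log2 difference 1.89, SE 0.18, adjusted p = 3.33e-05 for WT). Its host difference of 0.55 (adjusted p = 0.0335) was lost without Pfp/Rag2-/- library 1, 2 or 3 or WT library 1 or 3 (adjusted p = 0.0533, 0.0691, 0.11, 0.0934 and 0.0643). In unsorted WT tumours its values were 289, 43.2 and 121, again with library 1 apart. Cox7a1, the muscle form of subunit 7a, had 33.8, 47.8 and 20.3 in Pfp/Rag2-/- GFP+ cells, 23.9, 20.9 and 24.9 in WT GFP+ cells and 7.56, 13.2 and 20.03 in culture. It was called in Pfp/Rag2-/- GFP+ cells against culture (1.27, adjusted p = 0.0201), and not with quantile normalization (adjusted p = 0.331) or without Pfp/Rag2-/- library 2 or cultured library 1 or 2 (adjusted p = 0.0801, 0.074 and 0.0506). Cox6b2, the testis form of subunit 6b, had 95.8, 115 and 166 in WT GFP+ cells, 42.7, 30.8 and 59.2 in GFP- cells and 167, 188 and 173 in culture. WT GFP+ cells exceeded GFP- cells (log2 difference 1.49, SE 0.34, adjusted p = 0.00658), while the difference from culture (-0.52, adjusted p = 0.0408) was called in none of the 5 fits without WT GFP+ library 1 or 2 or a cultured library.

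Other genes of the pathway are given by count, higher and lower among those tested, and are read against the share of all genes called in either direction. That share was 76.4% for WT GFP+ against GFP- cells, 30.4% and 29.9% for the sorted and unsorted hosts, 72.2% and 65.6% for Pfp/Rag2-/- and WT GFP+ cells against culture, and 30.2% and 16.8% for them against unsorted tumours. Counts of these lists under other scalings were added after seeing the data. Of 14 tricarboxylic acid cycle enzymes, which feed electrons to the chain, 0 and 12 were called in Pfp/Rag2-/- GFP+ cells against culture and 2 and 11 in WT GFP+ cells against culture, with medians of -0.44 and -0.31. These became 2 and 9 in each host with quantile normalization, 2 and 10 in each with library totals, and 1 and 12 in Pfp/Rag2-/- and 2 and 11 in WT GFP+ cells with TMM factors. Idh2, the mitochondrial NADP-linked isocitrate dehydrogenase, had 2026 ± 94.4 in Pfp/Rag2-/- GFP+ cells, against 5052 ± 276 in culture (SD, n = 3; log2 difference -1.32, SE 0.05, adjusted p = 7.02e-08). Cs, the citrate synthase, was at -1.16 and -0.69 in the same 2 comparisons (adjusted p = 1.52e-07 and 2.21e-05), and it was lower in Pfp/Rag2-/- than in WT hosts in sorted cells (-0.48, adjusted p = 0.00499) and in unsorted tumours (-0.41, adjusted p = 0.0114). In WT GFP+ against GFP- cells 9 and 2 enzymes were called, and in the sorted and unsorted host comparisons 1 and 3, and 0 and 3. Against unsorted tumours the counts were 1 and 0 in Pfp/Rag2-/- and 0 and 0 in WT GFP+ cells.

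The mitochondrial ribosome translates the messengers of the 13 mitochondrial members. Of its 77 tested genes, 38 and 8 were called in WT GFP+ against GFP- cells, with a median of 0.33, and 69 and 0 with library totals. In unsorted Pfp/Rag2-/- against WT tumours 1 and 26 were called, with a median of -0.24, led by Mrpl13 (-0.73, adjusted p = 0.00109) and Mrpl18 (-0.66, adjusted p = 0.00176). In sorted cells the host counts were 5 and 8, but 13 and 4 with library totals. Against culture the counts were 18 and 33 in Pfp/Rag2-/- and 16 and 27 in WT GFP+ cells, but 28 and 15 and 23 and 19 with library totals, and Mrps6 fell most, at -1.99 and -1.60 (adjusted p = 2.04e-08 and 3.35e-07). Against unsorted tumours they were 11 and 0 in Pfp/Rag2-/- and 0 and 10 in WT GFP+ cells.

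Among 28 genes that copy, transcribe and process mitochondrial DNA and RNA, 14 and 4 were called in WT GFP+ against GFP- cells, a smaller share than over all genes, and 21 and 1 with library totals. Twnk, the mitochondrial DNA helicase, was higher by 1.83 (adjusted p = 4.69e-05) and Mterf2, a regulator of mitochondrial transcription, by 2.54 (adjusted p = 0.000396). In Pfp/Rag2-/- GFP+ cells against unsorted tumours 6 and 1 were called. The only one lower was Tfam, which packages mitochondrial DNA and starts its transcription (-0.18, adjusted p = 0.0293). With TMM factors and with quantile normalization the counts were 6 and 0, so Tfam was not called lower, and with library totals 6 and 1. The counts were 4 and 2 in sorted and 0 and 3 in unsorted host comparisons, 12 and 11 in Pfp/Rag2-/- and 6 and 10 in WT GFP+ cells against culture (15 and 5 and 10 and 5 with library totals), and 0 and 1 in WT GFP+ cells against unsorted tumours.

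Of 44 tested assembly factors, 17 and 8 were called in WT GFP+ against GFP- cells, from -1.82 for Cox17 (adjusted p = 0.000304), a copper chaperone of complex IV, to 2.59 for Lyrm7 (adjusted p = 0.00146), which serves the Rieske protein. The host counts were 6 and 2 in sorted cells and 1 and 5 in unsorted tumours, and against culture 10 and 16 in Pfp/Rag2-/- and, of 43, 5 and 20 in WT GFP+ cells. With library totals the counts were 30 and 5 against GFP- cells, 14 and 2 in sorted hosts and 18 and 12 in Pfp/Rag2-/- GFP+ cells against culture. Against unsorted tumours they were 2 and 2 in Pfp/Rag2-/- and, of 43, 0 and 4 in WT GFP+ cells. Subunits that the naming pattern misses, 6 genes with Cycs, the somatic cytochrome c, and Cyc1 among them, gave 5 and 0 in WT GFP+ against GFP- cells, 0 and 0 and 0 and 2 in the sorted and unsorted host comparisons, 2 and 2 and 1 and 2 against culture, and 2 and 0 and 0 and 0 against unsorted tumours (Pfp/Rag2-/- first, WT second). With library totals those against culture were 4 and 0 and 2 and 1.

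Of the regulators of mitochondrial content, Hif1a, the hypoxia factor, was at -2.37 in WT GFP+ against GFP- cells (adjusted p = 0.000238) and Myc at 1.544 (adjusted p = 0.000863), within 2 higher and 8 lower of 11 tested. Ppargc1a, the coactivator PGC-1alpha of mitochondrial biogenesis, was lower in GFP+ cells than in unsorted tumours, at -3.29 in Pfp/Rag2-/- and -2.14 in WT hosts (adjusted p = 0.0058 and 0.0136), within 1 higher and 3 lower of 13 and 1 and 1 of 12. Gabpb1, a partner of the ETS factor GABPA, was lower than in culture, at -0.58 in Pfp/Rag2-/- and -0.45 in WT GFP+ cells (adjusted p = 2.15e-05 and 0.000294), within 1 higher and 5 lower of 10 in each. In the host comparisons 0 and 1 of 10 were called in sorted cells, the one being Pprc1 (-0.36, adjusted p = 0.0351; 1 and 0 with library totals), and 0 of 13 in unsorted tumours.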

How the data were processed

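RNA-seq of 18 mouse libraries was analysed, 3 in each of 6 groups taken from the sample titles. The deposited values are a normalized signal, whole read counts divided by 1 size factor per library. STAR 2.5.2b, DESeq2 and GRCm38 are named, per the submitters' processing notes; no source used here gives the read counter, annotation release or strand setting. From the deposited values whole reads were recovered for 100.0% of entries within 0.05 reads, 19172814 to 21141662 per library.

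Genes with at least 10 in at least 3 libraries were tested on log2(value + 1) with limma 3.58.1 (R 4.3.3), using only the groups compared, with Benjamini-Hochberg adjustment over all genes and a two-sided threshold of 0.05. Fold changes on this scale are understated for low genes. Alternatives were edgeR 4.0.16 and DESeq2 1.42.0 on recovered reads, other scalings, filters and pseudocounts, 1 fit over all 18 libraries, a replicate block, and omission of each library. The procedure was tested on simulated independent counts with large planted differences. That test cannot speak to shifts shared by the genes of a library, or to small differences. Marker and pathway lists, and the members, were chosen with earlier results of these data known.

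Genes named were all 13 mitochondrial members, the up to 4 highest and 4 lowest called nuclear members per comparison with groups that do not overlap and a mean of at least 100, 1 core subunit per complex and the tissue-specific isoforms; a few others are named after their values were seen. Same-numbered libraries correlated at 0.616, 0.483 and 0.102 between the sorted hosts, the last not best with its own number. Between WT GFP+ and GFP- cells they correlated at 0.212, 0.0679 and 0.32, each best with its own number. Any pairing rests on these correlations alone, and the reported fits used none. Counting intervals and floors cover counting error only. Promoters and copies come from RefSeq and GRCm38 annotation tables.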

Additional observations from a re-analysis of the deposited data

Results flagged for a closer look

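Uqcrfs1, the Rieske iron-sulfur protein of complex III, is listed because the test of the difference between its host effects in sorted cells and in unsorted tumours passed the threshold. The difference between Pfp/Rag2-/- and WT hosts was larger in sorted GFP+ cells than in unsorted tumours by 0.511 on the log2 scale (adjusted p = 0.0374, limma interaction over 12 libraries). The sorted libraries of the hosts did not overlap, with 1689, 1777 and 1783 in Pfp/Rag2-/- GFP+ cells, against 1261, 1303 and 1368 in WT GFP+ cells. The unsorted libraries did overlap, with 1539.6, 1708 and 1696 in Pfp/Rag2-/- tumours, against 1887, 1717 and 1675 in WT tumours. The call was lost with no filter on low values (adjusted p = 0.0677), TMM factors (0.0546), 1 fit over all libraries (0.0756), edgeR (0.059) and the replicate block (0.0551). It was also lost on leaving out any single library other than WT GFP+ library 3 and unsorted WT libraries 1 and 2, with adjusted p-values up to 0.114, so the difference is not a stable call.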

How the results depend on the processing

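Over all results and settings, 205 counts and set differences stayed within 1.5 times or 1 SD of the reported value and 48 moved. The set differences with TMM factors and library totals, counted here too, could not change beyond the pseudocount. For single genes 5164 values kept their side of the threshold, 325 lost their call, 152 gained one and 23 turned. A value that turned changed sign and was called in the reported fit, the other fit or both. Changes of sign called in neither fit were counted among the 5164. The cause was not tested. Sorted Pfp/Rag2-/- against WT GFP+ cells gave 34 calls, 18 in 1 fit over all libraries, 10 without both libraries numbered 1 (a setting added after seeing the data) and 17 to 39 with 1 library left out. Unsorted Pfp/Rag2-/- against WT tumours gave 29 calls, and 14 to 38 with 1 library left out. WT GFP+ cells against culture gave 49, 20 in 1 fit over all libraries and 32 to 50 with 1 left out, and Pfp/Rag2-/- GFP+ cells against culture gave 62, and 57 to 62. WT GFP+ against GFP- cells gave 56, and 43 to 58. WT GFP+ cells against unsorted WT tumours gave 9, 5 with a filter at 50, 21 with quantile normalization, 16 with library totals, 33 in 1 fit over all libraries, 17 with DESeq2 and 0 to 15 with 1 left out. Pfp/Rag2-/- GFP+ cells against unsorted Pfp/Rag2-/- tumours gave 9, and 5 to 9. The interaction gave 1 call, 3 with a filter at 50, with quantile normalization or with library totals, 0 without a filter, with TMM factors, in 1 fit over all libraries or with edgeR, 12 with DESeq2, and 0 to 8 with 1 library left out.

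The mitochondrial minus nuclear difference, WT GFP+ minus GFP- cells, was -1.22, but -0.716 with quantile normalization and -0.724 over all 13 mitochondrial members, 6 of them nearly unread, with -1.35 to -1.12 on leaving out 1 library. For Pfp/Rag2-/- GFP+ cells minus unsorted tumours it was -0.94, but -0.511 over all 13, with -1.03 to -0.824. Leaving out 1 library gave -0.648 to -0.288 for WT GFP+ cells minus unsorted tumours, -0.400 to -0.167 for the sorted hosts, 0.000822 to 0.361 for the unsorted hosts, -0.340 to -0.149 for Pfp/Rag2-/- and -0.0668 to 0.166 for WT GFP+ cells minus culture, and -0.652 to -0.292 for the interaction. The sets over 13 members, and over members with no annotated nuclear copy, were added after seeing the data.

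Single genes that turned, as defined above, did so under scaling. Changes of sign without a call are not listed. In WT GFP+ minus GFP- cells quantile normalization gave 0.26 for mt-Co1, 0.58 for mt-Cytb, 0.29 for Cox4i1, 0.26 for Cox5b, 0.43 for Sdhb, 0.0273 for Ndufv3, 0.48 for Atp5d and 0.0734 for Uqcrh. Library totals gave 0.0691 for mt-Cytb, 0.28 for Cox4i1, 0.43 for Ndufs4, 0.0797 for Atp5e, 0.47 for Cox5b, 0.60 for Sdhb, 0.35 for Ndufv3, 0.58 for Atp5d, 0.30 for Uqcrh and 0.39 for Atp5j. Against culture, quantile normalization gave 0.0209 for Sdhb and 0.0245 for Cox6a1 in WT GFP+ cells, and 0.26 for Cox4i1 and 0.18 for Atp5j in Pfp/Rag2-/- GFP+ cells, where library totals gave 0.15 for Cox4i1.

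With the replicate number as a block, 31 members were called between the sorted hosts, and no named call in that comparison changed. WT GFP+ and GFP- libraries of the same number correlated at 0.212, 0.0679 and 0.32, each best with its own number. Whether those libraries share tumours is not given, and the block gave 53 calls there. It gave 24 in unsorted hosts, and 64 and 44 for Pfp/Rag2-/- and WT GFP+ cells against culture. Against unsorted tumours it gave 7 and 6 for Pfp/Rag2-/- and WT GFP+ cells, and 0 for the interaction. Depth limits Ndufa4l2, Cox4i2 and Cox7a1, and the unread mitochondrial genes cannot be described at all.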
